A study of Mus musculus with 12 samples.

Results

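The choroid plexus epithelium genes were followed in hippocampus RNA of mice heterozygous for the 6R allele of *Nell1* (*Nell-1+/6R*) and of WT littermates. They are 32 genes that mark the epithelial cells of the choroid plexus, chosen by name, and all 32 were found among the 27179 gene IDs of the count table. Hippocampus RNA was sequenced from 12 mice, all 3 months of age. Each genotype had 6 mice, of which 3 were female and 3 male. 6R is a chemically induced loss-of-function mutation of *Nell1*, whose homozygous carriers die at birth, so the *Nell-1+/6R* mice are heterozygous through the whole body and model haploinsufficiency. The study's methods name no treatment of the mice used for RNA before anaesthesia. The study took hippocampi from as many mice as there are libraries, so each library was taken as 1 mouse. The counts of a library summed to between 10834905 and 16016317. Levels are given as CPM, counts scaled to the size of the library with TMM factors.

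The choroid plexus is a fold of vascular tissue that lies in the brain ventricles, beside the hippocampus in the lateral ventricle. Its epithelium secretes cerebrospinal fluid by moving sodium, chloride, bicarbonate and water from the blood side to the ventricle, and it makes transthyretin, a carrier of thyroid hormone, in large amount. Tight junctions between its cells form the barrier between blood and cerebrospinal fluid. A dissected hippocampus holds this tissue only as far as the plexus comes along with it. The members were ordered by role into 8 genes of secreted proteins, 9 of ion and water transport, 5 of folate, monoamine, metal and retinoid handling, 4 of receptors and surface enzymes, 3 of transcription factors and 3 others.

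*Nell1*, the mutated gene, stood at 36.5 ± 4.55 CPM (SD, n = 6) in WT mice, against 19.1 ± 1.77 CPM (SD, n = 6) in heterozygotes, and the genotypes did not overlap. Its log2 fold change was -0.93 (SE 0.0803, edgeR adjusted p = 0.00015). The defining markers of the labelled tissue were present in all libraries, and the genes of hippocampal principal neurons summed to at least 806 CPM in each mouse. In 4 libraries, those of female WT 1, female WT 2, male WT 3 and female *Nell-1+/6R* 1, the members stood far above the level of the other 8. These 4 were set apart by the level of *Ttr* after the values had been seen, so their height is a description with no test. The genotype and sex comparisons are also given without them, and the interaction was fitted only with them.

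*Ttr*, the gene of transthyretin, was counted 62274 times in female *Nell-1+/6R* 1, 48472 times in male WT 3, 31342 times in female WT 1 and 8956 times in female WT 2. In the other 8 libraries it was counted between 191 and 1030 times. The 4 libraries held 4774.2, 4259.5, 1915.3 and 692 CPM of *Ttr* in the same order, against 13.5 to 93.1 CPM in the rest. Ranked by CPM per kilobase of exon, *Ttr* was the gene at rank 4, 5, 8 and 20 of 21610 in these 4 libraries, and at ranks 412 to 3942 in the other 8. The 31 members with any count took 0.765%, 0.713%, 0.332% and 0.156% of all counts in the 4 libraries and 0.0316% to 0.0531% in the rest. Of the 4 libraries, 3 were WT and 1 was *Nell-1+/6R*, and 3 were female and 1 was male.

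**Figure D1:**
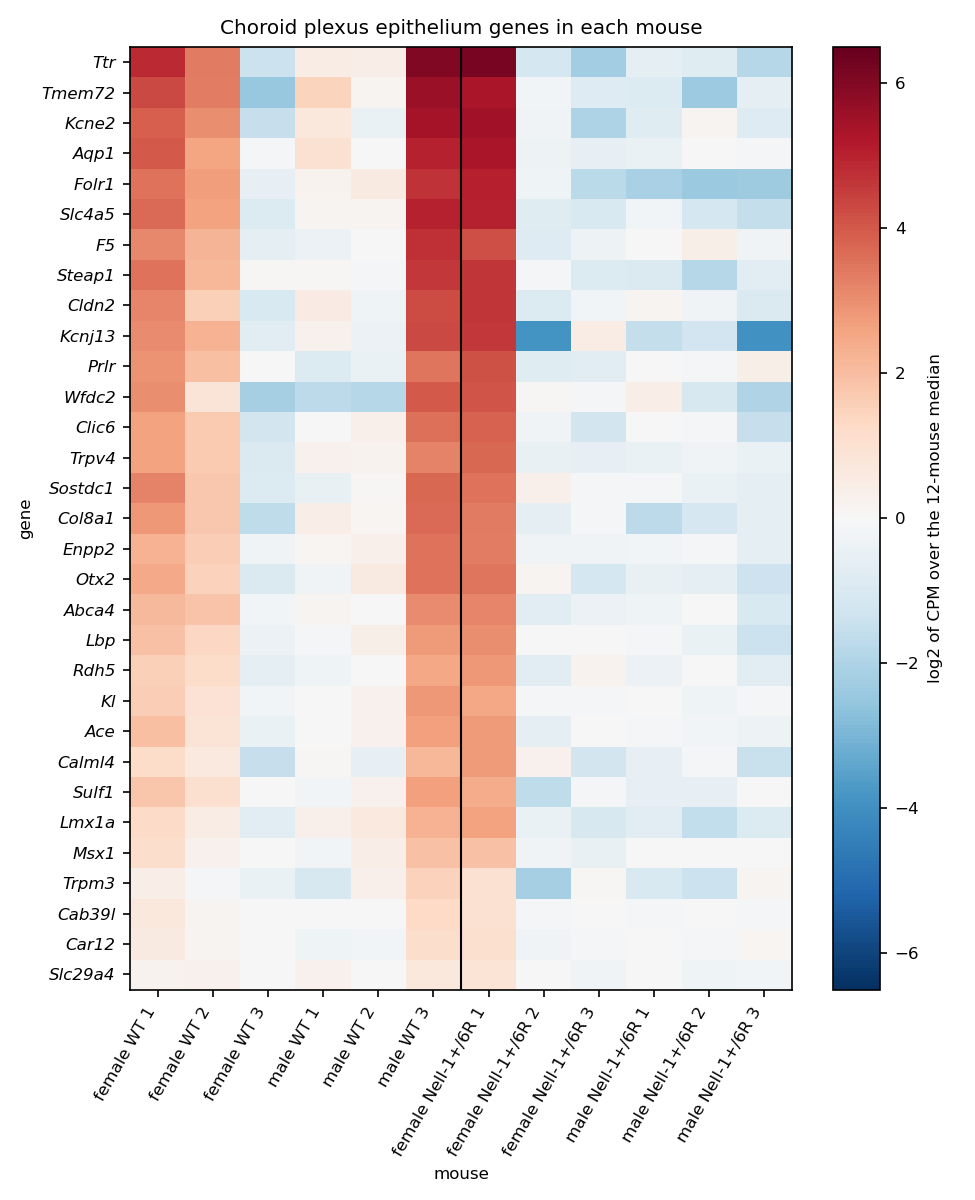
Colour gives the log2 of a gene's CPM over its median across the 12 mice, for the 31 genes tested (rows, by their largest value) in each mouse (columns, WT left of the line and *Nell-1+/6R* right of it). Female WT 1, female WT 2, male WT 3 and female *Nell-1+/6R* 1 are red in most rows, and *Ttr* reaches 72.8 times its median in female *Nell-1+/6R* 1.

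The same 4 libraries held the 4 highest values in 27 of the 31 members tested. Over all 17937 genes tested this was so for 280 genes, or 1.56%. The members differ in size, since 18 of them were over 10-fold above their 12-mouse median in their highest library, while *Slc29a4* reached only 1.83-fold. Female *Nell-1+/6R* 1 was the highest mouse for 20 members and male WT 3 for the other 11. The median member stood 11 times above its 12-mouse median in female *Nell-1+/6R* 1, 11.5 times in male WT 3, 6.08 times in female WT 1 and 3.05 times in female WT 2. In the other 8 mice the median member lay between 0.634 and 1.09 times that level. In bulk tissue, more epithelial cells and more RNA per cell cannot be told apart.

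All 8 genes of secreted proteins had these 4 libraries on top, and their largest fold over the 12-mouse median ran from 6.44 for *Sulf1*, a sulfatase of heparan sulfate, to 72.8 for *Ttr*. *Enpp2* (GRCm38 chr15:54838901-54952789), the gene of autotaxin, which makes lysophosphatidic acid, had 1511.7 CPM in female *Nell-1+/6R* 1, 1766.4 in male WT 3, 724 in female WT 1 and 463 in female WT 2. Its other 8 libraries held 102 to 191 CPM, so *Enpp2* was well expressed in every hippocampus sample and stood higher still in the 4. *Sostdc1*, a secreted antagonist of BMP and Wnt signals, had 33.9, 37.9, 27.1 and 9.88 CPM in the same 4 libraries and 1.57 to 3.59 CPM in the rest. *F5*, coagulation factor V, and *Lbp*, the lipopolysaccharide-binding protein, reached 27.2-fold and 8.14-fold over their medians. *Wfdc2* rested on 1 to 6 counts in each of the other 8 libraries, so its baseline is known only roughly.

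Of the 9 genes of ion and water transport, 8 had the same 4 libraries on top. *Aqp1* (GRCm38 chr6:55336299-55348555), the water channel of the ventricular membrane, had 32.2 CPM in female *Nell-1+/6R* 1, 26.8 in male WT 3, 13 in female WT 1 and 4.94 in female WT 2, against 0.566 to 1.67 CPM in the rest. *Kcne2*, a subunit of potassium channels, had 25.2, 24.1, 8.62 and 4.63 CPM against 0.142 to 0.927. *Slc4a5*, a sodium bicarbonate cotransporter, had 37.1, 37, 14.8 and 7.03 CPM against 0.396 to 1.3. These 3 genes were near the limit of counting in the 8 other libraries, where *Kcne2* had 2 to 10 counts and *Slc4a5* 5 to 15. *Kcnj13*, the inward rectifier potassium channel Kir7.1, had 29.4, 23.5, 10.3 and 5.79 CPM against 0.0791 to 1.7. *Clic6*, a chloride channel protein, had 89, 75.4, 38.8 and 20.3 CPM against 2.22 to 7.87. The tight junction gene *Cldn2* and the osmosensitive channel gene *Trpv4* reached 25.2-fold and 13.1-fold.

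Both remaining transport genes were counted in all 12 mice, and their excess was small. *Car12*, a carbonic anhydrase of the cell surface, had 36.5 to 48.4 CPM in the 8 other libraries and 49.2 to 94.7 in the 4. *Trpm3*, a cation channel gene, had 41.7 CPM in female *Nell-1+/6R* 1, 60.1 in male WT 3, 29.1 in female WT 1 and 20.2 in female WT 2, while the 8 other libraries ranged from 4.73 to 26.3 CPM. Of the 4, female WT 2 alone lay inside the range of the 8.

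Of the 5 genes that handle folate, monoamines, metals and retinoids, 4 had the same libraries on top. *Folr1* (GRCm38 chr7:101858331-101870788), the folate receptor that carries folate into cerebrospinal fluid, had 39.7 CPM in female *Nell-1+/6R* 1, 30.9 in male WT 3, 13.9 in female WT 1 and 7.72 in female WT 2, against 0.22 to 1.78 CPM in the rest. *Steap1*, a gene of the STEAP family of metal reductases, and the retinoid genes *Rdh5* and *Abca4* reached 25.3-fold, 7.15-fold and 8.93-fold. *Steap1* had only 1 to 4 counts in each of the 8 other libraries. *Slc29a4*, the plasma membrane monoamine transporter, had 56.8 to 89.5 CPM in the 4 libraries and 40.4 to 59 in the 8, so both ranges overlapped.

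Of the receptors and surface enzymes, *Kl*, *Prlr* and *Ace* had the 4 libraries on top. *Kl* (GRCm38 chr5:150952607-150993817), the gene of klotho, had 132 CPM in female *Nell-1+/6R* 1, 164 in male WT 3, 69.8 in female WT 1 and 43.4 in female WT 2, against 18.7 to 28.2 in the rest. *Ace*, the angiotensin-converting enzyme, and *Prlr*, the prolactin receptor, reached 6.92-fold and 17.5-fold. *Mfrp*, a membrane frizzled-related protein gene, had 0 counts in all 12 libraries, which allows up to 0.187 to 0.277 CPM per library (3 counts of the total, counting error only). It shares 36.7% of its exon bases with *C1qtnf5* on the same strand, so reads of either gene may not have been assigned.

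Among the transcription factors, *Otx2* (GRCm38 chr14:48656781-48667644), a homeodomain factor that choroid plexus cells need for their identity, had 15.6 CPM in female *Nell-1+/6R* 1, 16.3 in male WT 3, 7.7 in female WT 1 and 4.02 in female WT 2. Its other 8 libraries held 0.554 to 2.11 CPM. *Lmx1a* and *Msx1*, homeodomain factors of the dorsal midline where the plexus arises, reached 6.08-fold and 3.81-fold, and in both the value of female WT 2 lay inside the range of the 8 other libraries. Of the other members, *Tmem72* reached 48.6-fold, *Calml4* 6.8-fold and *Cab39l* 2.46-fold.

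Promoters of the members were read to see whether the letters bound by the OTX factors recur in these genes, since *Otx2* is itself a member. RefSeq promoter windows of 300 bases (GRCm38.p6, 250 bases before to 50 after a transcript start) were at hand for 25 of the 32 members, 35 windows in all. The OTX core TAATCC, searched on both strands (GGATTA on the other), was present in windows of 4 members, *Abca4*, *Ace*, *Otx2* and *Mfrp*. That is 16% of the 25 members, against 8.14% of 27025 genes with such windows. By window, the share was 11.4% for members and 7.06% for all 32851. Upstream bases are shown for *Ace*, and capitals mark the core. *Ace* is a measured member whose core lies outside the exons of GENCODE M21 and outside the RefSeq span of the gene. The core of *Abca4*, 58 bases before the start of its window's transcript, lies within the RefSeq span of the gene. The core of *Otx2* lies 211 bases before 1 of its 4 starts, in a window whose upstream end falls in an annotated exon. The bases of both are not shown.
*Ace*, chr11:105967698-105967944, plus strand, core starting 27 bases before the transcript start: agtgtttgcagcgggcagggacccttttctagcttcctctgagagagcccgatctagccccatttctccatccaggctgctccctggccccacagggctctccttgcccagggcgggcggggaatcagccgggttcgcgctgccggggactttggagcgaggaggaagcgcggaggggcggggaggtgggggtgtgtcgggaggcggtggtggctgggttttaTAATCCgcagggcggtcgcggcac

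The 3 measured genes with the core span different sizes of excess, with *Otx2* at 11.5-fold, *Abca4* at 8.93-fold and *Ace* at 6.92-fold over their medians. *Aqp1* and *Kcne2*, with a larger excess, hold no such letters in their windows, which says only that these letters are not there. A match of letters is a description and not a site of binding.

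**Figure D2:**
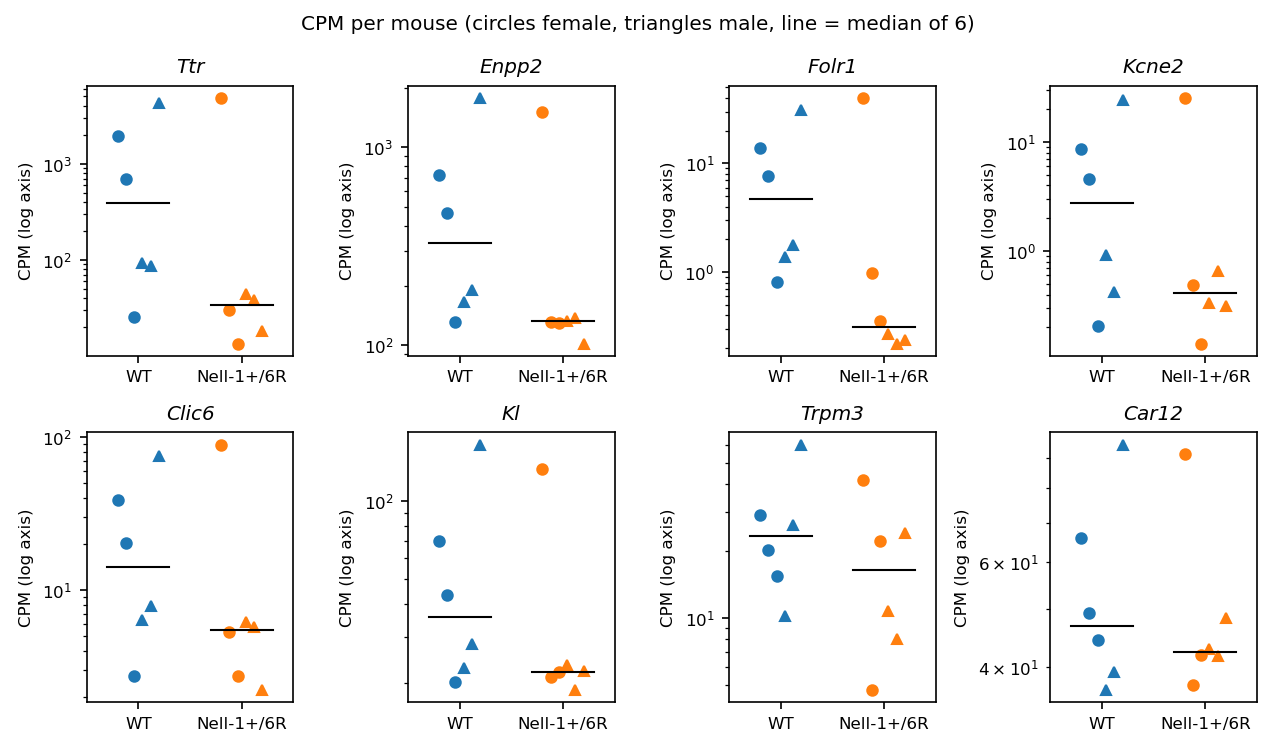
CPM on a log axis for 8 members in WT (blue) and *Nell-1+/6R* mice (orange), where circles are females, triangles are males and the line is the median of 6 mice. For *Ttr*, the WT median was 392 CPM and the *Nell-1+/6R* median 34.4 CPM, while the highest mice were close, at 4259.5 and 4774.2 CPM.

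Members can be set against each other only per length. In the 8 other libraries the highest medians per kilobase of exon were those of *Ttr* (29 CPM per kilobase), *Enpp2* (22.8), *Slc29a4* (16.8), *Car12* (5.5) and *Cab39l* (4.4). In female *Nell-1+/6R* 1 the order began with *Ttr* (4025.5 CPM per kilobase), *Enpp2* (262), *Slc29a4* (31.3), *Ace* (24.7) and *Kcnj13* (23.1). Of the 31 members, 11 had a median under 1 CPM in the 8 other libraries and 8 had one over 10 CPM.

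The proportions among the members were compared across the 4 libraries. For each member the CPM above its 12-mouse median was divided by the same excess of *Ttr*, and the result is given per 1000 CPM of *Ttr*. *Aqp1* had an excess of 6.59, 6.57, 6.19 and 6.66 in female WT 1, female WT 2, male WT 3 and female *Nell-1+/6R* 1, and *Steap1* had 1.48, 1.43, 1.47 and 1.36. These values were nearly equal although *Ttr* itself ran from 692 to 4774.2 CPM over the same libraries. Of the 29 members with an excess in all 4 libraries, 26 differed by less than 2-fold between the highest and the lowest library, with a median of 1.72-fold. *Sostdc1* had 13.1, 11.2, 8.34 and 6.58, so it was relatively richest in female WT 1 and poorest in female *Nell-1+/6R* 1. *Abca4*, *Wfdc2* and *Slc29a4* varied most, by 2.46-fold, 3.16-fold and 4.21-fold, and for *Trpm3* female WT 2 had no excess. The excess of a member moves with the median subtracted, most of all for *Slc29a4* and *Car12* with their high baseline.

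**Figure D3:**
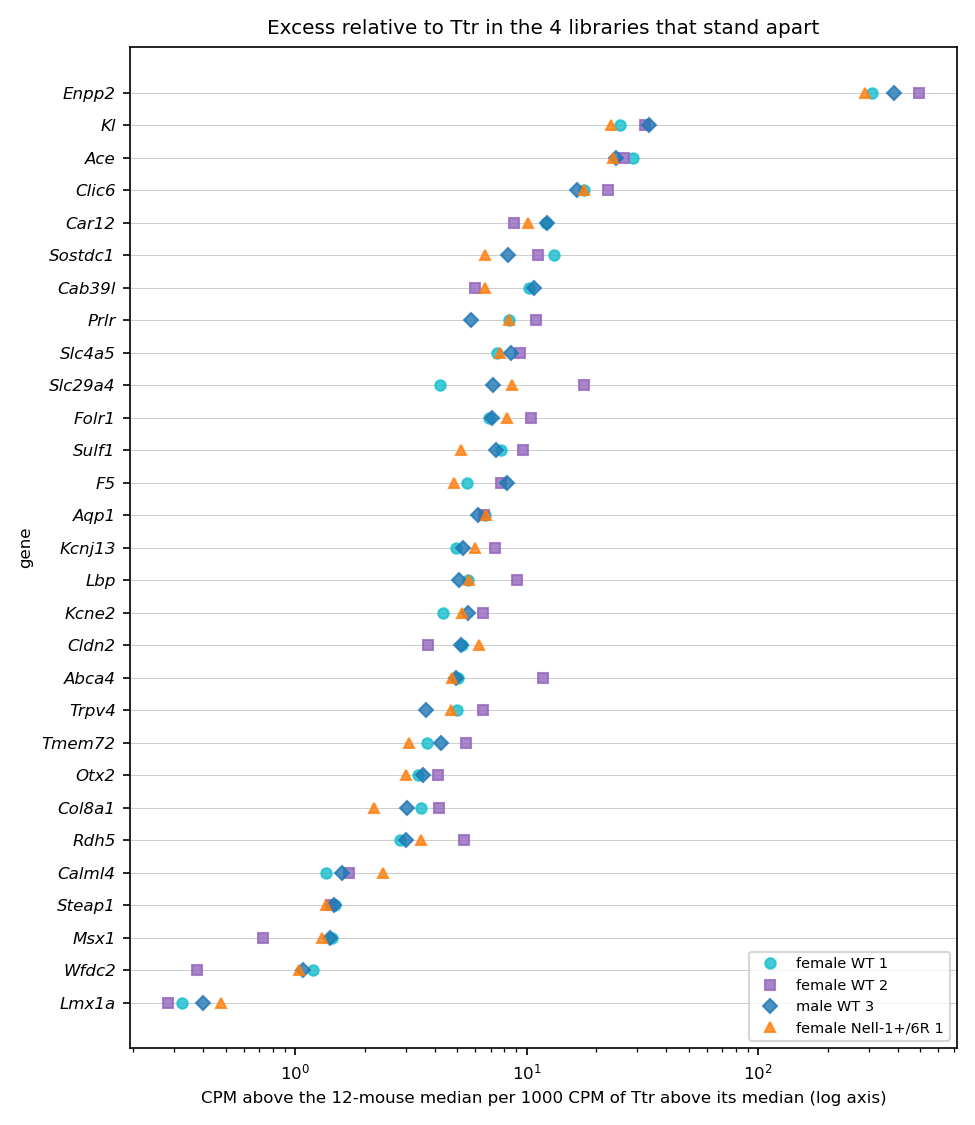
Excess of each member over its 12-mouse median per 1000 CPM of *Ttr* excess (log axis), with 1 symbol for each of the 4 libraries that stand apart. The symbols of *Aqp1* and *Steap1* nearly coincide, and those of *Wfdc2* and *Slc29a4* lie farthest apart, by 3.16-fold and 4.21-fold. *Trpm3* is left out since it had no excess in female WT 2.

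The highest pair of libraries, female *Nell-1+/6R* 1 and male WT 3, differ in both sex and genotype. The ratio of the first to the second had a median of 1.07 over the 31 members, and 20 members were higher in the first, *Slc4a5* by a margin that rounds to a ratio of 1. The ratio was lowest for *F5*, at 0.672, and *Trpm3*, at 0.694, and highest for *Calml4*, at 1.53, and *Prlr*, at 1.57. With 1 mouse of each kind these ratios have no replicate check.

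The mice fell into separate clusters of *Ttr* level, so no correlation over all 12 was computed. Within the 8 other libraries, log2 CPM of 24 of 30 members correlated positively with *Ttr* after removing genotype means, with a median Pearson r of 0.436. By an exact two-sided permutation test within genotype, 4 had an unadjusted p under 0.05, and none held after Benjamini-Hochberg adjustment over the 30 (lowest adjusted p = 0.308 for r and 0.5 for Spearman's rho). The 8 libraries were themselves picked by their *Ttr* level, and for these counts no share over all genes is given. The strongest was *Clic6* (r = 0.937, exact p = 0.0208, adjusted p = 0.308, rho = 0.786, exact p = 0.0694). *Slc4a5* followed *Ttr* with r = 0.79 (exact p = 0.0431) and rho = 0.881 (exact p = 0.0333). Without male WT 1 and male WT 2, the pair farthest from the median of *Ttr*, 22 of 30 members were positive. Here the genotype means of all 8 mice were kept, and r was 0.938 for *Clic6* and 0.733 for *Slc4a5*. With genotype means taken anew from the 6 mice left, 18 of 30 members were positive. Only 1 of the 6 mice left is WT, so no test within genotype is given for them.

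To ask whether the members differ by genotype, the whole table was fitted in edgeR (quasi-likelihood) with a term for sex. Calls needed an unadjusted p under 0.05 together with more than a 1.5-fold change. None of the 31 members passed, where 1.07% of all genes tested were called lower. No member had an unadjusted p under 0.05 in this test, the lowest being 0.205 for *Sulf1*, and none had an adjusted p under 0.05. DESeq2 and limma-voom also called none. The fitted log2 fold change was nevertheless below 0 for all 31 members, with a median of -0.83, while 50.3% of all genes lay below 0. The members share the same 4 libraries, so their common sign is not independent evidence of a direction. WT and *Nell-1+/6R* mice overlapped in all 31 members, and over all genes 0.151% did not overlap.

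*Ttr* ranged from 25.3 CPM through a median of 392 to 4259.5 CPM in WT mice, and from 13.5 through 34.4 to 4774.2 CPM in *Nell-1+/6R* mice. The means were 1178.7 ± 1671.6 and 820 ± 1937.3 CPM (SD, n = 6 each), so the spread exceeded the mean in both genotypes. Its log2 fold change was -2.21 (SE 2.28, edgeR adjusted p = 1, approximate 95% interval -6.69 to 2.26). Without the term for sex it was -0.52 (SE 1.47). *Enpp2* ranged from 131 through 327 to 1766.4 CPM in WT and from 102 through 132 to 1511.7 CPM in *Nell-1+/6R* mice, with a log2 fold change of -1.03 (SE 0.888, edgeR adjusted p = 1). The single high *Nell-1+/6R* mouse lay near the highest WT mouse in both genes.

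*Folr1* ranged from 0.819 through 4.75 to 30.9 CPM in WT and from 0.22 through 0.312 to 39.7 CPM in *Nell-1+/6R* mice. Its log2 fold change was -1.20 (SE 1.36, edgeR adjusted p = 1, interval -3.87 to 1.46). Those of *Slc4a5*, *Kcnj13*, *Kcne2* and *Aqp1* were -1.19, -1.07, -1.03 and -0.97, with standard errors of 1.22 to 1.35. *Sostdc1*, *Otx2*, *Clic6*, *Kl* and *Trpm3* had -1.13, -0.94, -0.83, -0.65 and -0.54. The interval of each of these genes included 0 and a 1.5-fold decrease. Exact permutation tests of log2 CPM over the 924 splits of the mice gave p from 0.139 to 0.861 for the 31 members (two-sided, smallest possible 0.00216).

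Which mice were included decided the genotype result. Without female *Nell-1+/6R* 1, the only high mouse of its genotype, 27 of 31 members were called lower in *Nell-1+/6R* mice, where 1.75% of all genes were, and the median log2 fold change was -2.29. *Ttr* then stood at -5.40 (SE 1.19, edgeR adjusted p = 0.584). Without male WT 3, the median was 0.13 and only 7 members lay below 0, with *Ttr* at -0.12 (SE 1.25). Without all 4 libraries, 2 members were called lower, *Folr1* at -1.72 (SE 0.501) and *Ttr* at -1.04 (SE 0.33), where 0.585% of all genes were. Both had an edgeR adjusted p of 1. Since the 4 libraries were left out for their *Ttr* level, the genotype values of *Ttr*, and of members that follow it, in the remaining 8 mice depend on that choice and are a description. *Enpp2*, at -0.34 (SE 0.129), passed the p but not the fold threshold.

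Among the 8 remaining mice, *Ttr* had 25.3, 93.1 and 87.1 CPM in the 3 WT and 13.5, 18.4, 30.2, 38.5 and 44 CPM in the 5 *Nell-1+/6R* mice, so the genotypes overlapped through female WT 3. *Folr1* had 0.819, 1.39 and 1.78 CPM in these WT and 0.22, 0.237, 0.271, 0.354 and 0.978 CPM in these *Nell-1+/6R* mice, from 3 to 21 counts each. Its genotypes overlapped through female *Nell-1+/6R* 2. Over the 31 members, 24 lay below 0 in this fit against 48.7% of all genes, with a median of -0.29.

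**Figure D4:**
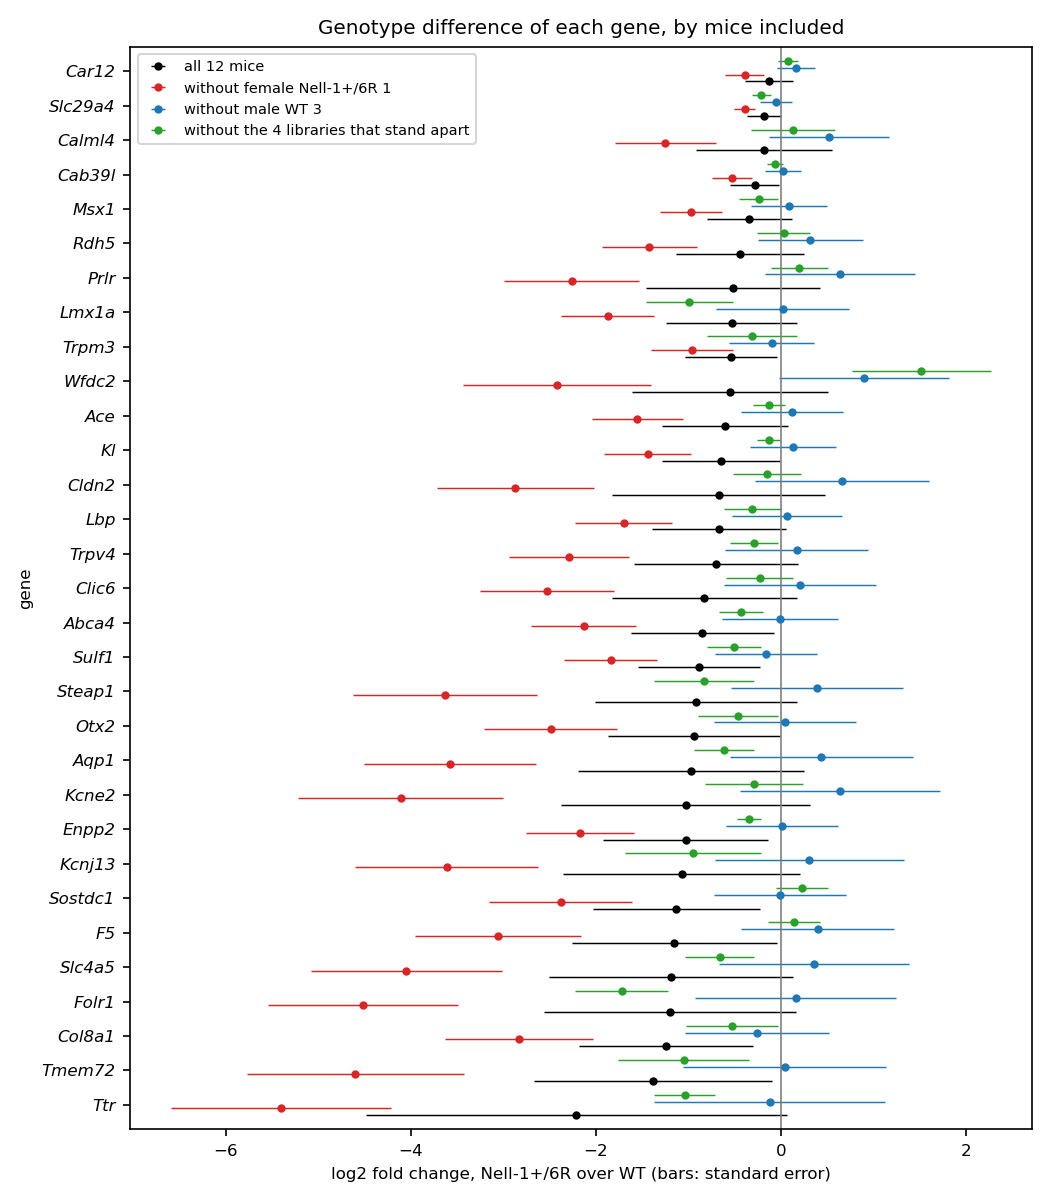
Log2 fold change of *Nell-1+/6R* over WT for each of the 31 members with its standard error, with all 12 mice (black), without female *Nell-1+/6R* 1 (red), without male WT 3 (blue) and without the 4 libraries that stand apart (green). The red points lie farthest left, with *Ttr* at -5.40, and most blue points lie at or right of 0.

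Between the sexes, the same fit called none of the 31 members, where 0.881% of all genes were called lower in males. The fitted difference, male over female, was below 0 for all 31, with a median of -0.85 and *Ttr* at -2.33 (SE 2.28, edgeR adjusted p = 0.869). Of the females 3 and of the males 1 are among the 4 libraries. Without male WT 3, 25 members were called lower in males, where 1.4% of all genes were, and *Ttr* stood at -4.50 (SE 1.45). Without female *Nell-1+/6R* 1, by contrast, 1 member lay below 0 and the median was 0.35. Without the 4 libraries, *Ttr* alone was called, higher in males at 1.05 (SE 0.352, edgeR adjusted p = 1), where 0.477% of all genes were. This value too depends on leaving out 3 females and 1 male for their level of *Ttr*, and is a description.

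The genotype by sex interaction asks whether the genotype difference in males differs from that in females. At an unadjusted p under 0.05, 6 of 31 members passed, where 3.09% of all genes did, and none passed after adjustment (adjusted p = 0.987). They were *Folr1*, *Ttr*, *Tmem72*, *Kcnj13*, *Slc4a5* and *Lmx1a*, with interaction values from -6.35 to -3.01 on the log2 scale. The value of *Ttr* was -6.33 (SE 2.8). The high mouse was 1 of 3 in the female *Nell-1+/6R* group and 1 of 3 in the male WT group. The count was 0 without female *Nell-1+/6R* 1, male WT 3, male *Nell-1+/6R* 1 or male *Nell-1+/6R* 2, each left out alone, and 20 without female *Nell-1+/6R* 3, where 10.3% of all genes passed. It was 14 with no filter on low counts, where 2.85% of all genes passed, and 3 with a filter of 1 CPM in 6 mice, where 2.71% did. Limma-voom called none.

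The genes of other cell types were measured beside the members. Of the 24 genes of fluid secretion and further choroid genes that are no members, 15 had the same 4 libraries on top. *Ecrg4*, a secreted peptide precursor, had 51.2 CPM in female *Nell-1+/6R* 1 and 37.4 in male WT 3 against 0.744 to 2.11 CPM in the 8 others, and *Igf2* had 320 and 281 against 29.7 to 108. *Atp1b1*, the most counted gene of this list, is also expressed by neurons and did not have these libraries on top. By genotype 1 of the 24 was called lower, against 1.07% of all genes, *Cp*, the gene of ceruloplasmin, at -0.61 (edgeR adjusted p = 1), and none higher. Without the 4 libraries *Cp* stood at -0.60 and was not called, while 2 of the 24 were called lower, against 0.585% of all genes, among them *Krt18*, an epithelial keratin gene, at -1.12.

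Of 10 ependymal genes, 2 had the 4 libraries on top, none was called by genotype, and their sum ran from 44.1 to 81.6 CPM in the 4 libraries and from 26 to 56.6 in the 8. *Foxj1*, the factor that drives motile cilia, and *Rsph1*, a ciliary protein gene, had the most counts. Of the 10 leptomeningeal fibroblast genes none had the 4 libraries on top. Their sum ran from 78.5 to 179 CPM in WT and from 42.9 to 122 CPM in *Nell-1+/6R* mice, and in female *Nell-1+/6R* 1 it was 68.6 CPM. In this list 6 genes were called lower in *Nell-1+/6R* mice, against 1.07% of all genes, *Aldh1a2* at -1.42, *Slc22a6* at -1.28, *Col1a2* at -1.09, *Slc6a13* at -1.08, *Col1a1* at -0.93 and *Lum* at -0.59, none with an adjusted p under 0.05. Without the 4 libraries none of the 10 was called, with fewer mice in the fit, but the folds kept their sign, with *Aldh1a2* at -1.25, *Slc22a6* at -1.16, *Col1a2* at -0.89 and a list median of -0.58 against -0.76 with all mice. The part of the leptomeningeal genes in the values of the members was not tested.

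Of the 4 genes of fenestrated endothelium, the vessel type of the plexus, *Esm1* alone was called, lower at -1.33 (edgeR adjusted p = 1) on 45 counts in WT and 18 in *Nell-1+/6R* mice. It had the same 4 libraries on top and was not called without them, at -1.08. *Plvap*, which forms the diaphragms of fenestrae, had 30.1 CPM in female *Nell-1+/6R* 1 and 19.6 to 24.1 CPM in the 8 others. The other 3 libraries that stand apart lay inside that range, at 22.1 CPM in female WT 1, 23.9 in female WT 2 and 22 in male WT 3. None of 6 brain endothelial, 8 oligodendrocyte, 6 hippocampal principal neuron and 5 astrocyte genes was called. Of the 6 thalamus and habenula genes, *Slc17a6*, a vesicular glutamate transporter, was lower at -1.23 (edgeR adjusted p = 0.0035) and was called at -1.09 without the 4 libraries, and none of the 6 had the 4 libraries on top. The sum of oligodendrocyte genes was 6396.7 CPM in female *Nell-1+/6R* 1 and 6135.7 in female WT 2, above the 2921.5 to 5010.2 CPM of the 8 other libraries, while female WT 1 and male WT 3 lay inside that range at 4716.1 and 4195.2 CPM.

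**Figure D5:**
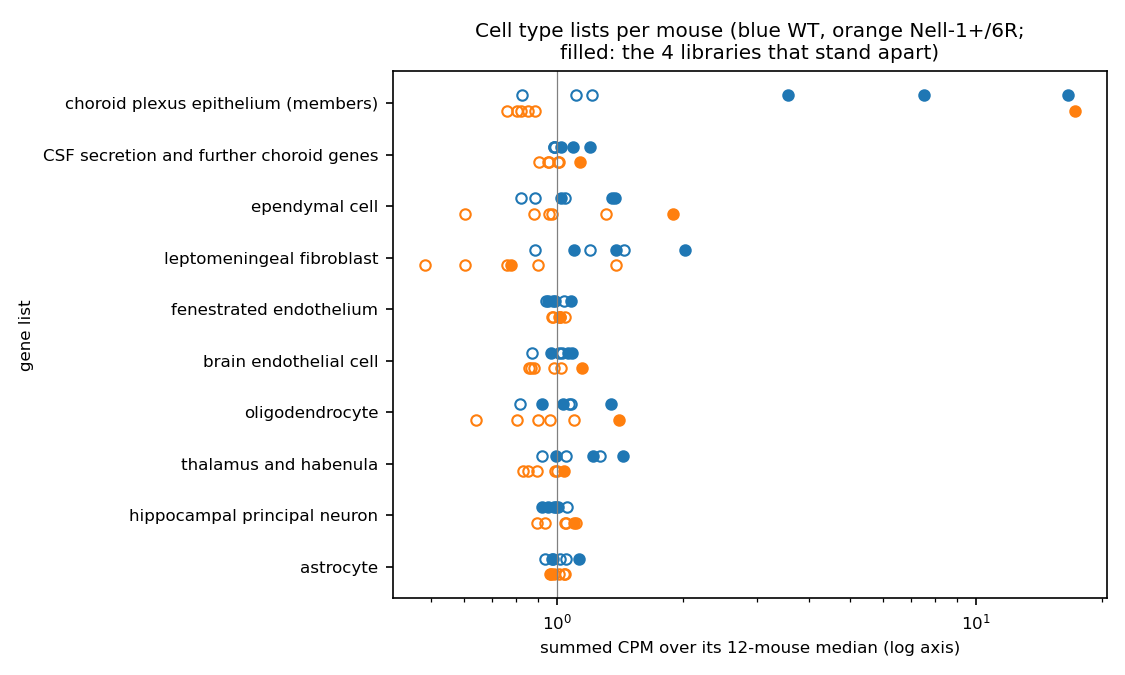
Summed CPM of each gene list over its 12-mouse median (log axis) in each mouse, WT in blue and *Nell-1+/6R* in orange, with the 4 libraries that stand apart filled. The sums of the members run from 329.4 to 7421.8 CPM, a wider spread than in any other list shown, and the leptomeningeal sum of female *Nell-1+/6R* 1 was 68.6 CPM.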

How the data were processed

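RNA of the hippocampus of 12 mice was sequenced on an Illumina instrument as single reads of 50 bases. Per the labels, the authors aligned reads to mm10 with HISAT2 2.1.0 and counted them per gene with featureCounts 2.0.1. The deposited values are raw counts per Entrez gene ID, neither normalized nor pooled, and 0 columns were left unmapped. No source used here gives the strand setting or how reads on several genes were treated, so *Kcnj13*, which shares 49.1% of its exon bases with *Gigyf2* on the opposite strand, and *Rdh5*, which shares 25.6% with *Bloc1s1*, are uncertain. The titles of the WT samples also carry the abbreviation for heterozygous, while their genotype field says WT.

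Of 27179 IDs, 25275 were named from RefSeq (GRCm38.p6) and 21610 had an exon length in GENCODE M21. Genes with at least 0.2 CPM in at least 2 mice were tested (17937, with 31 of the 32 members). The main test was edgeR 4.0.16 (quasi-likelihood, TMM, sex and genotype, R 4.3.3), with Benjamini-Hochberg adjustment over all genes. Standard errors are the log2 fold change divided by the root of F, and intervals assume a normal distribution. The test was checked on simulated data. Log2 CPM used a prior count of 2. The thresholds and filter are those of the study, which used limma-voom. Alternatives were other scaling factors, DESeq2, limma-voom, no filter, 1 CPM in 6 mice, no term for sex, a block for replicate number, and each mouse left out. A fit without the 4 libraries that stand apart was added after seeing the data.

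The members and gene lists were chosen with earlier results of these data known. Values per mouse were given for 12 defining members and for any member past the thresholds by a rule written beforehand, and for others by range. Named genes of the other lists are those past the thresholds and, for the fluid secretion and ependymal lists, the 2 most counted (of which 1 is not reported here), while *Ecrg4*, *Igf2* and *Plvap* were named after their values were seen. Replicates are separate samples per the labels, each taken as 1 mouse. No 2 libraries of a group agreed within sampling noise (chi-square per degree of freedom 4.87 to 31.7). Limits for counts of 0 include no error other than counting, as reads were not tagged with molecular identifiers.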

Additional observations from a re-analysis of the deposited data

Results flagged for a closer look

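Within a genotype of 6 mice, the gap of the extreme mouse to its neighbour was divided by the range of the group, and a ratio above Dixon's critical value for 6 marked a result. Chance marks about 1 in 20 groups where values are normally distributed. The CPM of these members is skewed towards high values, so that rate need not hold here. The members also share their libraries, so the marks are not independent. Female *Nell-1+/6R* 1 was marked for 11 of the 12 members described mouse by mouse. Its ratio was 0.994 for *Ttr*, 0.992 for *Aqp1*, 0.983 for *Slc4a5*, 0.981 for *Folr1*, 0.979 for *Kcne2* and 0.974 for *Enpp2*. It was 0.959 for *Kl*, 0.954 for *Clic6*, 0.947 for *Sostdc1*, 0.945 for *Kcnj13* and 0.928 for *Otx2*. *Trpm3* was the exception. Over all 31 members tested, this mouse was marked for 30. Male WT 3 was marked among WT mice for 4 members, *F5* (0.697), *Kl* (0.655), *Kcne2* (0.648) and *Enpp2* (0.637).

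By the interaction term, 6 members passed an unadjusted p under 0.05 in edgeR, where 3.09% of all genes did. The count was 0 without female *Nell-1+/6R* 1, male WT 3, male *Nell-1+/6R* 1 or male *Nell-1+/6R* 2, each left out alone. It was also 0 in limma-voom. The interaction was -6.35 on the log2 scale for *Folr1*, -6.33 for *Ttr*, -5.66 for *Tmem72*, -5.50 for *Kcnj13*, -5.07 for *Slc4a5* and -3.01 for *Lmx1a*. None held after adjustment over all genes.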

How the results depend on the processing

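The genotype result rested on single mice. Leaving out each mouse in turn gave 0 to 27 members past the thresholds by genotype, a median log2 fold change from -2.29 (without female *Nell-1+/6R* 1) to 0.13 (without male WT 3), 0 to 25 members past the thresholds by sex and 0 to 20 members in the interaction. The log2 fold change ranged from -3.58 to 0.44 for *Aqp1*, from -2.53 to 0.21 for *Clic6*, from -2.17 to 0.01 for *Enpp2*, from -4.52 to 0.16 for *Folr1*, from -4.11 to 0.64 for *Kcne2*, from -3.61 to 0.31 for *Kcnj13*, from -1.44 to 0.13 for *Kl*, from -2.49 to 0.05 for *Otx2* and from -4.05 to 0.36 for *Slc4a5*. In each of these the positive end came without male WT 3. Without the 4 libraries that stand apart, 2 members passed by genotype and 1 by sex, and *Sostdc1* turned to 0.23. In the interaction, no filter gave 14 members (2.85% of all genes), 1 CPM in 6 mice (25 members left) gave 3 (2.71% of all genes) and limma-voom gave 0. No setting gave a member an adjusted p under 0.05 by genotype. The cause of these changes was not tested beyond the mice left out.

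With the replicate number as a replicate block, 1 member passed by genotype, *Sulf1* at -0.93 (edgeR adjusted p = 1), and *Folr1* stood at -1.94. In that fit 157 of the 17937 genes tested were called lower. Same-numbered mice of a sex correlated at -0.204 to 0.238, and differently numbered mice at -0.365 to 0.257. With so few pairs this cannot decide whether the numbers pair the mice. With genotype alone in edgeR, *Ttr* stood at -0.52 and the median at -0.44, and with other scaling factors, DESeq2 and limma-voom with sex the median stayed between -0.99 and -0.82. At 0.2 CPM a gene has only a few counts per mouse, which limits *Kcne2*, *Tmem72*, *Steap1*, *Wfdc2*, *Kcnj13* and *Lmx1a* in the 8 other libraries. In these, *Kcnj13* had 1 to 24 counts and *Lmx1a* 2 to 8.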

Other observations

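Beyond the members and the fixed lists, 235 further genes had their 4 highest values in the same 4 libraries, and in 24 of these each of the 4 was over 2-fold above the 12-mouse median. The examples below were chosen after their values were seen, from the 10 with the largest fold in female *Nell-1+/6R* 1 among genes with a median of at least 0.2 CPM, and are not all of the largest. *Wdr86* had 15.7 CPM in that mouse, 8.17 in male WT 3, 5.32 in female WT 1 and 2.86 in female WT 2, against 0.396 to 1.09 CPM in the 8 others. *Slc16a8*, a lactate transporter of secretory and retinal epithelia, had 9.58, 5.71, 3.67 and 2.86 CPM against 0.169 to 0.835. *Prr32* had 9.28, 7.03, 2.93 and 1.47 CPM against 0.158 to 0.947. *Col8a2*, the partner chain of the member *Col8a1*, had 27.8, 27.2, 12.8 and 10.3 CPM against 1.35 to 4.82. The opposite pattern, these 4 libraries lowest, was met in 34 of the 17937 genes tested.

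*A2m*, the gene of alpha-2-macroglobulin, kept the 4 libraries on top but not their order, with 28.6 CPM in female *Nell-1+/6R* 1, 15 in female WT 1, 7.34 in female WT 2 and 7.03 in male WT 3.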
